A study of Mus musculus with 16 samples.

Results

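The genes described here are 8 transcription factors and cofactors at the output side of the circadian clock: the PAR bZIP activators Dbp, Tef and Hlf, their bZIP repressor Nfil3, the bHLH repressors Bhlhe40 and Bhlhe41, the repressor Ciart, and the orphan nuclear receptor Rora. They were taken by name from the whole-number count table, which lists 23329 genes, and all 8 were found, Ciart under its older symbol Gm129. Of the 8, 7 passed the filter on low counts and Rora did not.

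The libraries hold poly(A)-selected RNA of BetaTC6, a mouse β-cell line of insulinoma origin (background C57BL/6). Wild-type cells and cells of a second line, labelled as a knockout of the purinergic receptor gene P2ry1, were each given 20 mM glucose for 30 min together with DMSO, the vehicle, or with ivermectin, an antiparasitic drug, after a preincubation without glucose. This gave 4 groups of 4 libraries: wild-type vehicle, wild-type ivermectin, vehicle libraries labelled knockout and ivermectin libraries labelled knockout. All groups share the glucose stimulation and a buffer with 3% serum albumin. Whether the knockout line is a single clone, which agent made the deletion, the ivermectin concentration and the clock time of collection are not given in the sources used here, and nothing says that the 4 libraries of a group came from separate cultures, so the p-values measure the spread between these libraries.

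Library totals ran from 893088 to 2013242 counts, and the 4 lowest totals were those of the wild-type vehicle group. P2ry1 itself was at 94.6 ± 8.57 CPM (a count divided by the TMM-scaled library total, SD, n = 4) in wild-type vehicle libraries and at 84.0 ± 8.98 CPM in vehicle libraries labelled knockout (log2 difference -0.17, SE 0.101, edgeR adjusted p = 0.245), so its transcript level did not check the genotype labels. All 12 β-cell markers examined, among them Ins1, Ins2 and Pdx1, passed the low-count filter, and their summed level was 34723 to 46281 CPM in single libraries. The pancreatic acinar and ductal markers Prss1, Cpa1 and Krt19 had 0 counts in every library, and with Sox9 that list summed to at most 3.31 CPM. Markers of hepatocytes were read in every group: the 23 genes of that list summed to 777 to 2263 CPM in wild-type vehicle, 152 to 417 CPM in wild-type ivermectin, 79.3 to 165 CPM in vehicle libraries labelled knockout and 111 to 356 CPM in ivermectin libraries labelled knockout, and none of them was at 0 in a group. Transcripts of 4 other islet hormones (Gcg, Sst, Ppy and Ghrl) summed to 472 to 553 and 505 to 534 CPM in the wild-type groups and to 221 to 245 and 220 to 269 CPM in the groups labelled knockout.

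In the mammalian clock the activator pair CLOCK and BMAL1 (the product of Arntl) binds DNA elements called E-boxes and drives, among others, its own repressors and the PAR bZIP genes. DBP, TEF and HLF then activate genes through D-boxes, while NFIL3 (also called E4BP4) represses through the same elements. BHLHE40 and BHLHE41 (DEC1 and DEC2) compete at E-boxes, CIART (CHRONO) binds and represses the CLOCK and BMAL1 pair, and RORA activates Arntl through a response element it shares with the NR1D1 and NR1D2 repressors. In islets the clock is known to bear on insulin secretion.

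The 8 genes lie on 7 chromosomes of the mouse assembly GRCm38, the build that UCSC calls mm10. Dbp is at chr7:45705100-45710203, Tef at chr15:81802673-81826863, Hlf at chr11:90336535-90390917 and Nfil3 at chr13:52967209-52982878. Bhlhe40 (chr6:108660629-108666925) and Bhlhe41 (chr6:145858243-145865420) share a chromosome, Ciart is at chr3:95878500-95882257, and Rora spans chr9:68653404-69388246. RefSeq promoter entries (GRCm38.p6) matched 7 of the 8 genes with 8 start sites, since Tef has a pair, and no entry was matched for Bhlhe40.

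The 250 bases before each start were searched on both strands for the E-box CACGTG, the D-box TTANGTAA, the nuclear receptor half-site AGGTCA and the cAMP response element TGACGTCA, none of which overlapped another in these windows. Shown first are the windows of Hlf and Tef, the genes that passed the test in the comparisons that follow, and of Ciart, the only one of the 8 windows with more than 1 E-box. Capitals mark the matches. The Hlf window is on the minus strand at chr11:90390918-90391167, the upstream Tef start is on the plus strand at chr15:81802423-81802672, the downstream Tef start is on the plus strand at chr15:81811164-81811413, and the Ciart window is on the minus strand at chr3:95882229-95882478.
Hlf: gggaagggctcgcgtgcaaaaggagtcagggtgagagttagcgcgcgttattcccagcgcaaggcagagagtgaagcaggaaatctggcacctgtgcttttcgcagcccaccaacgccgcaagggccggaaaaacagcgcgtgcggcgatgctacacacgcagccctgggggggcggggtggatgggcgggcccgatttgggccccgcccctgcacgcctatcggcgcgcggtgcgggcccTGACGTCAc
Tef upstream start: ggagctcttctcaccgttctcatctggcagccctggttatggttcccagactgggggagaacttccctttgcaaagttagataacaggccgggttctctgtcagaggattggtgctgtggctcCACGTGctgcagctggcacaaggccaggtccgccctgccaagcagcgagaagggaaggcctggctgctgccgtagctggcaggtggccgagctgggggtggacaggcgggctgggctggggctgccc
Tef downstream start: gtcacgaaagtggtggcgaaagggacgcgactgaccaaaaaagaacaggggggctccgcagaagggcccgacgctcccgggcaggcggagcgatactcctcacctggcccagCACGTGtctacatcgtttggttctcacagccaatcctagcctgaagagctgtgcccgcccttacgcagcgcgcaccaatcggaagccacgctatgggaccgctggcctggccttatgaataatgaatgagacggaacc
Ciart: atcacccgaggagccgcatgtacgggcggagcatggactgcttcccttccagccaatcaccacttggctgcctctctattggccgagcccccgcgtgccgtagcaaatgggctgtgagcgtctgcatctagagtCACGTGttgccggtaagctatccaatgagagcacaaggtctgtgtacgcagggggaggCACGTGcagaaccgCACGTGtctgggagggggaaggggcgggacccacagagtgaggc

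Hlf held no E-box in this window and 1 cAMP response element that begins 9 bases before the start, a motif found in 1.55% of all 32851 promoter windows. Each Tef window held 1 E-box, 127 bases before the upstream start and 138 before the downstream start. Ciart held 3, at 116, 58 and 44 bases before its start, and Bhlhe41 held 1 at 153 bases. An E-box was found in 6.02% of all windows. A D-box, found in 2.06% of all windows, was in none of the 8. The nuclear receptor half-site, in 14.02% of all windows, was found once, in reverse orientation 12 bases before the start of Nfil3. The windows of Dbp and Rora held none of the 4 motifs. The starts used for Dbp, Nfil3, Ciart and Rora lie inside the gene spans given above. The Nfil3 window, on the minus strand at chr13:52981040-52981289, lies wholly inside. Bases before any start further upstream in these genes were not searched. A match is a string of letters, not a site shown to be bound, and the absence of a match speaks only of these 250 bases.

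The 8 genes were expressed at low to moderate levels. On the length-scaled TPM scale, the only one used here to compare genes, Bhlhe41 was at 26.5 ± 4.26 TPM in wild-type vehicle libraries (SD, n = 4), Nfil3 at 22.4 ± 3.66, Tef at 18.4 ± 3.91 and Dbp at 13.2 ± 4.76. Ciart followed at 10.6 ± 1.51 TPM, Bhlhe40 at 9.88 ± 3.07, Hlf at 3.81 ± 0.917 and Rora at 3.43 ± 1.502 (SD, n = 4). The ranges of every pair of neighbours in this order overlapped in wild-type vehicle libraries except Bhlhe40 above Hlf. Hlf and Rora took the last 2 places in each of the 4 groups, and their ranges overlapped in each.

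**Figure D1:**
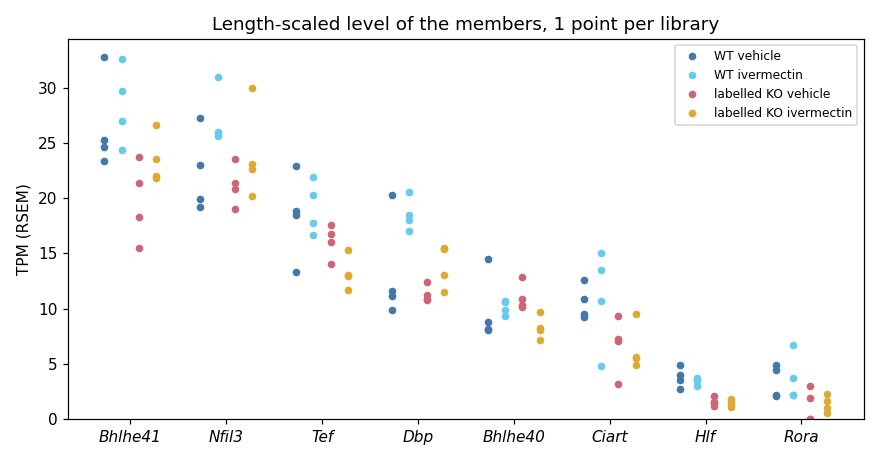
Length-scaled level (TPM, vertical axis) of the 8 genes in order of their mean over all libraries, 1 point per library, coloured by group. Bhlhe41 and Nfil3 sit highest, and Hlf and Rora lie below 7 TPM in every library.

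These levels rest on few counts. Single libraries held 38 to 114 counts of Tef, 22 to 64 of Nfil3, 18 to 51 of Bhlhe41, 15 to 49 of Bhlhe40 and 9 to 39 of Dbp. Hlf had 8 to 25 counts, Ciart 5 to 23 and Rora 0 to 10. Counting noise alone gives a chi-squared per degree of freedom near 1 within a group, and the genes ranged from 0.497 for Bhlhe41 to 1.68 for Rora.

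Libraries labelled knockout were first compared with wild type within each treatment, with edgeR's quasi-likelihood test and an adjusted p under 0.05 as the threshold. Of the 8 genes Hlf was lower in both treatments and Tef in ivermectin. In numbers, 1 of the 7 tested genes passed in the vehicle comparison of the labels, where 20.7% of all 10820 tested genes passed. In the ivermectin comparison 2 of the 7 passed, against 27.8% of all genes. The calls, Hlf in vehicle and Hlf and Tef in ivermectin, were all falls, where 10.8% of all genes fell in vehicle and 13.9% in ivermectin. They were also the members whose groups did not overlap, a state found for 22.1% and 25.3% of all genes. The median log2 difference of the 7 was -0.14 in vehicle and -0.29 in ivermectin, beside 0.00 for all tested genes in both. The counts that passed in either direction and that did not overlap are near the shares of all genes, and with 7 genes the counts and medians are given as a description.

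Hlf separated the genotype labels in both treatments. It was at 13.5, 9.78, 15.0 and 17.7 CPM in the wild-type vehicle libraries and at 5.81, 7.52, 5.99 and 4.77 CPM in the vehicle libraries labelled knockout. In ivermectin it was at 12.5, 13.2, 11.3 and 14.5 CPM in wild type and at 4.29, 5.14, 6.53 and 7.76 CPM in libraries labelled knockout. All 8 wild-type libraries were above all 8 libraries labelled knockout, so the groups did not overlap in either treatment.

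For Hlf in vehicle the fitted log2 difference, knockout label minus wild type, was -1.20 (SE 0.276, 95% interval -1.76 to -0.64, edgeR adjusted p = 0.00141). Under ivermectin, in 8 other libraries, it was -1.12 (SE 0.261, 95% interval -1.65 to -0.59, edgeR adjusted p = 0.00131). Hlf was thus 2.30-fold lower in vehicle and 2.18-fold lower in ivermectin. It passed the low-count filter, about 6.01 CPM in at least 4 libraries, mainly through the 8 wild-type libraries, since 1 vehicle and 2 ivermectin libraries labelled knockout reached that level. Without a filter the differences were -1.17 (edgeR adjusted p = 0.00192) and -1.11 (edgeR adjusted p = 0.00161). DESeq2 gave larger SEs and weaker calls: -1.21 in vehicle (SE 0.362, DESeq2 adjusted p = 0.0104) and -1.13 in ivermectin (SE 0.354, DESeq2 adjusted p = 0.0139).

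The hepatocyte markers also differed between the labels in vehicle (the leading marker Alb by -3.91, and by -0.56 in ivermectin, edgeR adjusted p = 3.28e-11 and 0.256). Their sums did not overlap there (777 to 2263 against 79.3 to 165 CPM), so in vehicle the genotype label and the hepatocyte transcripts cannot be told apart. With the summed hepatocyte list as a covariate the vehicle difference of Hlf was -1.38 with an SE of 0.606 and no longer passed (edgeR adjusted p = 0.267). The ivermectin difference was -1.14 and still passed (edgeR adjusted p = 0.00157). In the ivermectin groups the hepatocyte sums overlapped (152 to 417 against 111 to 356 CPM), and Hlf did not. Within wild type, the hepatocyte sum was 1418 ± 693 CPM in vehicle and 246 ± 121 CPM in ivermectin (SD, n = 4 each), and Hlf was at 13.97 ± 3.28 and 12.9 ± 1.37 CPM. The summed transcripts of other islet hormones did not overlap between the labels in either treatment and were lower in libraries labelled knockout. Beyond the fit with the hepatocyte covariate, the part of either marker list in the Hlf difference was not tested. All libraries were also thinned to the smallest total, 893088 counts, in a single random draw. Hlf then differed by -1.18 in vehicle and by -1.47 in ivermectin (edgeR adjusted p = 0.00917 and 0.00273).

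**Figure D2:**
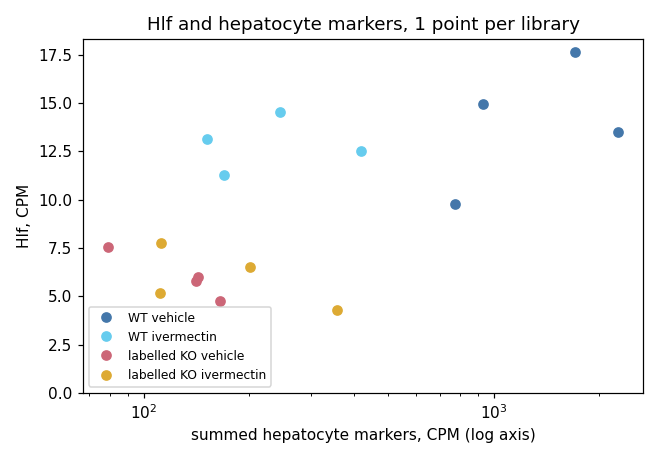
Hlf (CPM, vertical axis) against the summed level of 23 hepatocyte markers (CPM, log axis), 1 point per library, coloured by group. At hepatocyte sums between 111 and 417 CPM the wild-type ivermectin libraries have Hlf at 11.3 to 14.5 CPM and the ivermectin libraries labelled knockout have 4.29 to 7.76 CPM.

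Tef, a PAR bZIP activator like Hlf, differed between the genotype labels under ivermectin. It was at 57.0, 55.9, 46.4 and 51.3 CPM in wild-type ivermectin libraries and at 38.1, 44.0, 41.2 and 36.9 CPM in ivermectin libraries labelled knockout. The groups did not overlap, and the log2 difference was -0.40 (SE 0.126, 95% interval -0.66 to -0.15, edgeR adjusted p = 0.0146), a 1.324-fold lower level. In vehicle the values were 50.6, 49.9, 63.1 and 35.3 CPM against 41.2, 44.6, 50.4 and 47.7 CPM, and the ranges overlapped. The vehicle difference was -0.10 (95% interval -0.37 to 0.18, edgeR adjusted p = 0.677). That Tef passed under ivermectin and not in vehicle does not show a different effect, since the interaction was -0.31 (SE 0.186, edgeR adjusted p = 0.995). The ivermectin call was lost with DESeq2 (-0.40, adjusted p = 0.0732), after thinning to the smallest total (-0.34, SE 0.171, edgeR adjusted p = 0.156) and without wild-type ivermectin replicate 1 (-0.36, edgeR adjusted p = 0.0607).

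Dbp, the PAR bZIP gene whose transcript cycles strongly in many tissues, was at 13.1 ± 4.83 CPM in wild-type vehicle and 11.8 ± 1.03 CPM in vehicle libraries labelled knockout, and at 18.6 ± 0.991 and 15.3 ± 2.41 CPM in ivermectin (SD, n = 4 each). Its genotype differences did not pass (log2 -0.14 in vehicle and -0.29 in ivermectin, edgeR adjusted p = 0.754 and 0.272).

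The summed TPM of Dbp, Tef and Hlf was 35.4 ± 7.94 in wild-type vehicle, 41.1 ± 3.98 in ivermectin-treated wild type, 29.0 ± 2.21 in vehicle libraries labelled knockout and 28.6 ± 0.802 in ivermectin libraries labelled knockout (SD, n = 4 each). Hlf made up 8.34 to 16.5% of that sum in wild-type vehicle libraries and 4.17 to 7.03% in vehicle libraries labelled knockout, and under ivermectin 7.72 to 9.40% against 3.66 to 6.30%. The sum overlapped between the labels in vehicle (29.8 to 47.2 against 26.3 to 31.5 TPM) and did not under ivermectin (36.7 to 45.96 against 27.7 to 29.5 TPM). Relative to Nfil3, their common opponent at the D-box, the sum was 1.58 ± 0.199 times the Nfil3 TPM in wild-type vehicle, 1.53 ± 0.229 in ivermectin-treated wild type, 1.38 ± 0.185 in vehicle libraries labelled knockout and 1.22 ± 0.176 in ivermectin libraries labelled knockout (SD, n = 4 each). The ranges of this ratio overlapped between the labels in both treatments. None of these sums, shares and ratios was tested. TPM is not TMM-scaled, unlike CPM, so differences of the sum between groups depend on the scale. Under ivermectin, mean Nfil3 was 27.1 TPM in wild type and 23.9 TPM in libraries labelled knockout, but 33.2 and 32.0 CPM. The shares and ratios are taken within a library and do not depend on that scaling.

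In the main fit Nfil3 showed the smallest genotype difference of the tested genes in each treatment. This order did not hold in every alternative. In vehicle Nfil3 was 0.21 after thinning and -0.23 with the hepatocyte covariate, where Tef was -0.0531 and -0.18. Nfil3 was at 26.8 ± 4.58 CPM in wild-type vehicle and 26.8 ± 2.74 CPM in vehicle libraries labelled knockout (SD, n = 4 each). Its log2 difference in the main fit was 0.00 in vehicle, with a 95% interval of -0.36 to 0.35 (edgeR adjusted p = 0.993). In ivermectin it was -0.04, with an interval of -0.34 to 0.26 (edgeR adjusted p = 0.869).

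Among the E-box repressors no genotype difference passed the threshold. Bhlhe40 differed by 0.25 in vehicle (95% interval -0.14 to 0.63, edgeR adjusted p = 0.389) and by -0.15 in ivermectin (edgeR adjusted p = 0.577). Bhlhe41 differed by -0.35 in vehicle (95% interval -0.73 to 0.03, edgeR adjusted p = 0.216) and by -0.16 in ivermectin (edgeR adjusted p = 0.486). Ciart had a lower mean in libraries labelled knockout in both treatments, 5.75 ± 2.35 against 8.42 ± 1.16 CPM in vehicle and 5.64 ± 1.59 against 8.91 ± 3.43 CPM in ivermectin (SD, n = 4 each). Its differences, -0.56 (95% interval -1.30 to 0.17, edgeR adjusted p = 0.291) and -0.68 (95% interval -1.34 to -0.02, edgeR adjusted p = 0.118), did not pass, and single libraries held as few as 5 counts. With the hepatocyte covariate the vehicle difference was -0.10 (edgeR adjusted p = 0.9754). The ivermectin value became -0.90 and passed (edgeR adjusted p = 0.0328) without wild-type ivermectin replicate 3, the library with 3.98 CPM where the other 3 had 9.19 to 11.5 CPM.

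Rora was too low for the filtered test. Its counts were 4, 2, 2 and 5 in wild-type vehicle, 7, 4, 10 and 3 in ivermectin-treated wild type, 0, 0, 4 and 6 in vehicle libraries labelled knockout and 2, 3, 4 and 1 in ivermectin libraries labelled knockout. The ranges of the CPM values overlapped in both treatments. A count of 0 allowed up to 1.72 and 1.52 CPM in the pair of libraries that had none, taking 3 counts as the limit, for counting error only. In a fit without a low-count filter the Rora log2 difference between the labels was -1.25 in vehicle (95% interval -2.50 to -0.01, edgeR unadjusted p = 0.0486, adjusted p = 0.195) and -1.22 in ivermectin (95% interval -2.32 to -0.13, edgeR unadjusted p = 0.0287, adjusted p = 0.123). Both intervals lay below 0, and neither difference passed after adjustment.

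**Figure D3:**
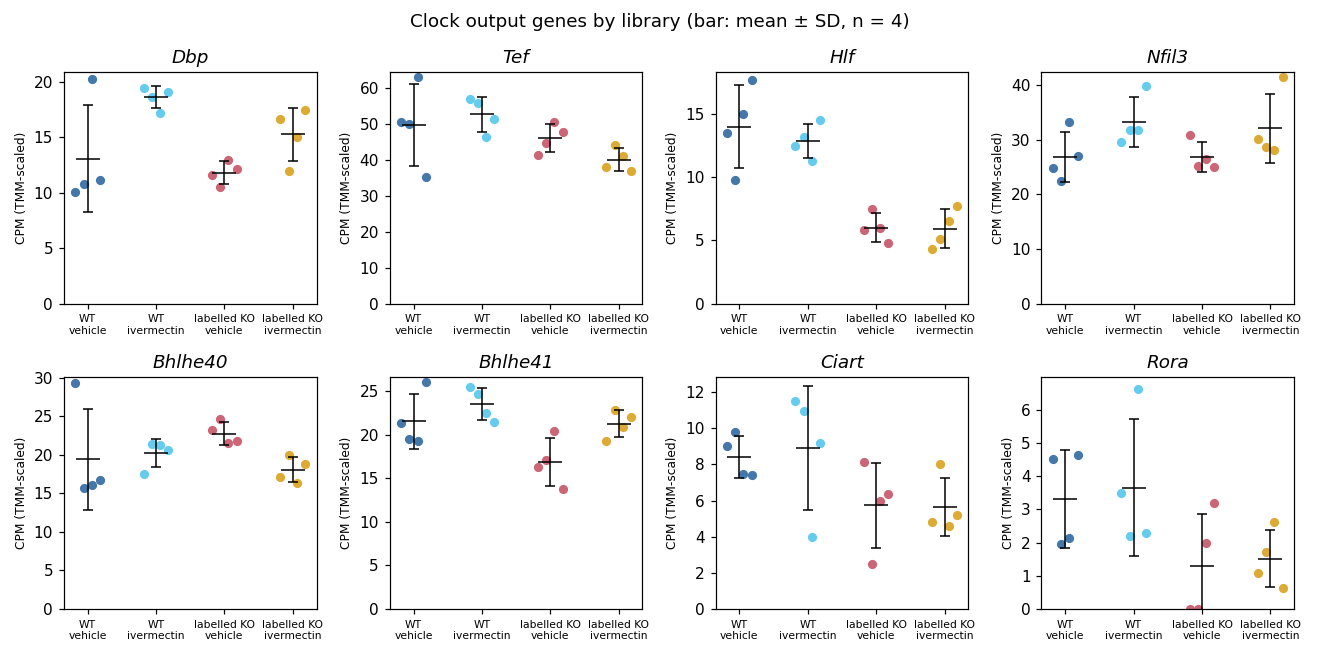
TMM-scaled CPM of each of the 8 genes (vertical axes, each from 0) in the 4 groups, 1 point per library, with the mean and SD as a bar (n = 4). Hlf is the gene whose wild-type libraries, 9.78 to 17.7 CPM, all lie above the libraries labelled knockout, 4.29 to 7.76 CPM.

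The next comparison asks whether ivermectin changed these genes within a genotype label. In wild type 0 of the 7 tested genes passed with edgeR or with DESeq2, and 1 had an unadjusted p under 0.05, where 0.601% of all genes passed and 5.2% had an unadjusted p under 0.05. The ranges of all 7 overlapped there, where the groups of 3.35% of all genes did not. In libraries labelled knockout 0 of 7 passed with either tool and 0 had an unadjusted p under 0.05, where 0% of all genes passed and 7.58% had an unadjusted p under 0.05.

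The gene with an unadjusted p under 0.05 was Dbp. It was at 10.1, 10.8, 20.3 and 11.1 CPM in wild-type vehicle libraries and at 19.5, 18.6, 17.2 and 19.1 CPM in wild-type ivermectin libraries. The ivermectin libraries thus lay above 3 of the 4 vehicle libraries, and replicate 3 of the vehicle group was above all of them. The log2 change was 0.52 (SE 0.226, 95% interval 0.06 to 0.98, edgeR unadjusted p = 0.0280, adjusted p = 0.874). Without that vehicle library it was 0.80 (edgeR adjusted p = 0.301). In libraries labelled knockout Dbp was at 11.6, 10.5, 13.0 and 12.2 CPM in vehicle and 16.6, 11.997, 15.0 and 17.5 CPM in ivermectin, a log2 change of 0.36 (SE 0.204, 95% interval -0.05 to 0.78, edgeR adjusted p = 0.693). After thinning to the smallest total it was 0.84 (SE 0.323, edgeR adjusted p = 0.644).

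Nfil3 and Bhlhe40 are known from other cells as genes that external stimuli can induce, and no change of either passed here. The Nfil3 log2 difference was 0.29 in wild type (95% interval -0.06 to 0.64, edgeR adjusted p = 0.988) and, under the knockout label, 0.25 (95% interval -0.05 to 0.55, edgeR adjusted p = 0.702). That of Bhlhe41 was 0.13 in wild type (95% interval -0.23 to 0.50) and 0.32 in libraries labelled knockout (95% interval -0.01 to 0.66), neither past the threshold (edgeR adjusted p = 0.9998 and 0.674).

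Bhlhe40 was at 23.2, 24.6, 21.5 and 21.7 CPM in vehicle libraries labelled knockout and at 17.2, 20.0, 16.3 and 18.8 CPM in ivermectin libraries of that label. These groups did not overlap, as for 3.69% of all genes, and the log2 change was -0.33 (SE 0.168, 95% interval -0.67 to 0.01, edgeR adjusted p = 0.664). In wild type it was at 29.2, 15.6, 16.03 and 16.7 CPM in vehicle and at 17.5, 21.4, 21.2 and 20.7 CPM in ivermectin, a log2 change of 0.07 (95% interval -0.34 to 0.47, edgeR adjusted p = 0.9998), and replicate 1 of the vehicle group stood above the rest.

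The remaining genes had ivermectin differences between -0.20 and 0.12 on the log2 scale. The Tef difference was 0.11 in wild type (95% interval -0.17 to 0.38) and -0.20 in libraries labelled knockout (95% interval -0.46 to 0.05). That of Hlf was -0.13 (95% interval -0.63 to 0.37) and -0.05 (95% interval -0.65 to 0.55). For Ciart it was 0.12 (95% interval -0.57 to 0.81) and 0.00 (95% interval -0.69 to 0.69), and with the hepatocyte covariate the wild-type value was 0.46. Their intervals reach 1.304-fold in Tef and 1.75-fold in Ciart in wild type.

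The interaction, which tests whether ivermectin acted differently under the 2 genotype labels, passed for 0 of the 7 genes with edgeR and with DESeq2, and 0 had an unadjusted p under 0.05. Of all genes 0.222% passed and 5.11% had an unadjusted p under 0.05. The interaction estimates ran from -0.40 for Bhlhe40 (95% interval -0.92 to 0.13) to 0.19 for Bhlhe41 (95% interval -0.30 to 0.68), with SEs of 0.186 to 0.488 (edgeR adjusted p from 0.995 to 0.9998).

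**Figure D4:**
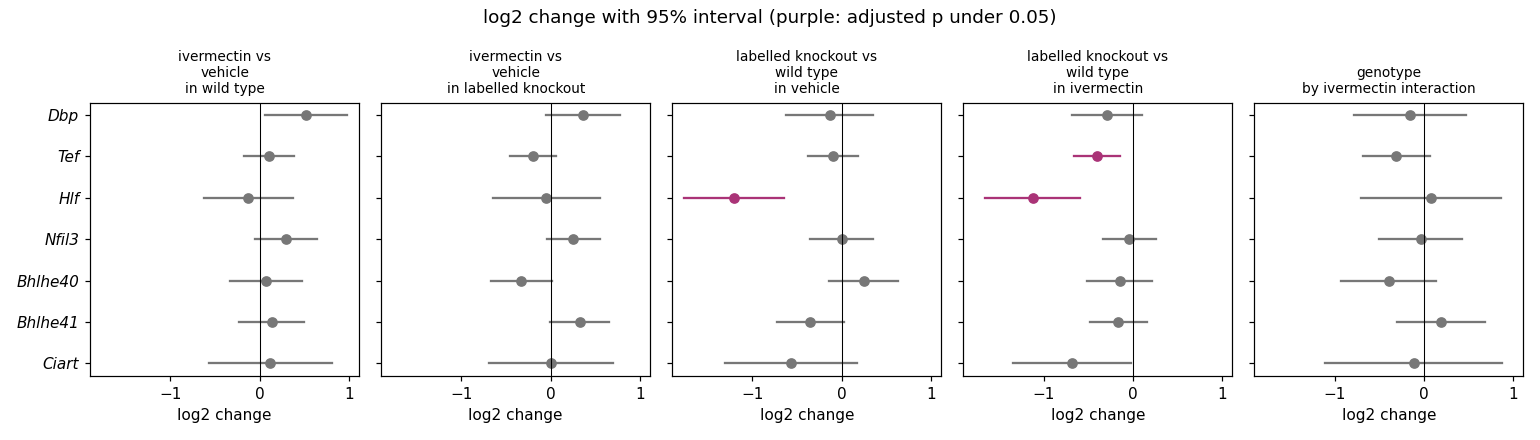
Fitted log2 change (horizontal axis) with its 95% interval for the 7 tested genes in the 5 comparisons, purple where the edgeR adjusted p was under 0.05. Hlf in both comparisons of the genotype labels (-1.20 and -1.12) and Tef under ivermectin (-0.40) are the 3 purple points.

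Of the 8 genes, Tef alone is listed in the files with more than 1 transcript. One begins at the downstream start, with a first exon of 307 nt and a length of 4244 nt, and the other begins at the upstream start, with a first exon of 214 nt and a length of 4151 nt. Both share the other 3 exons, 3937 nt, so only reads that touch a first exon tell them apart. The abundance-weighted length that RSEM gave each library was 4244 nt in 11 libraries, the length of the downstream-start transcript alone. In wild-type vehicle replicate 1 it was 4151 nt, the length of the upstream-start transcript alone. In 4 libraries it lay between, with an implied share of the upstream start of 13.1 to 39.3%. The mean length differed by 9.56 to 13.7 nt between the groups of the 4 comparisons (exact permutation test over 70 splits, two-sided, p = 0.429 to 1, Benjamini-Hochberg adjusted p = 0.857 to 1). Because most libraries were tied at 4244 nt, the smallest p these values could give was 0.143 in the comparisons with the wild-type vehicle group and 0.429 in the other 2, so no comparison could have passed and the test does not show whether the lengths differed. The 4 ivermectin libraries labelled knockout were all at 4244 nt.

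The other genes of the clock were taken from a list of 19, of which 14 passed the low-count filter. In the vehicle comparison of the labels 0 rose, 2 fell and 12 did not pass, and in ivermectin 0 rose, 2 fell and 12 did not pass. Of all tested genes 10.8% fell in vehicle and 13.9% in ivermectin, so these counts are not a result about the clock genes. The median log2 difference of the 14 was -0.25 in vehicle and -0.18 in ivermectin, beside 0.00 for all genes. For ivermectin within either label, and for the interaction, 0 of the 14 passed with edgeR and 0 had an unadjusted p under 0.05, where 0.601%, 0% and 0.222% of all genes passed and 5.2%, 7.58% and 5.11% had an unadjusted p under 0.05.

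Per2, a core repressor of the CLOCK and BMAL1 pair, fell in both treatments: from 28.9 to 40.5 CPM in wild-type vehicle to 16.8 to 21.6 CPM in vehicle libraries labelled knockout (log2 -0.86, SE 0.164, edgeR adjusted p = 0.000151), and from 35.8 to 40.0 CPM to 14.9 to 22.0 CPM in ivermectin (log2 -1.09, SE 0.149, edgeR adjusted p = 7.73e-07). Arntl, which encodes BMAL1, fell in vehicle (log2 -1.03, SE 0.286, edgeR adjusted p = 0.00798) and was -0.53 in ivermectin (edgeR adjusted p = 0.128). Single vehicle libraries held 7 to 14 counts of Arntl in wild type and 10 to 12 under the knockout label. The latter were at 4.99 to 6.97 CPM, near the filter level of 6.01 CPM. In vehicle the label and the hepatocyte transcripts cannot be told apart, and covariate values were not examined for the clock list. Nr1d2, a repressor that shares its DNA element with RORA, was -0.20 in vehicle (edgeR adjusted p = 0.125) and fell by 0.22 in ivermectin (SE 0.0839, edgeR adjusted p = 0.0423).

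**Figure D5:**
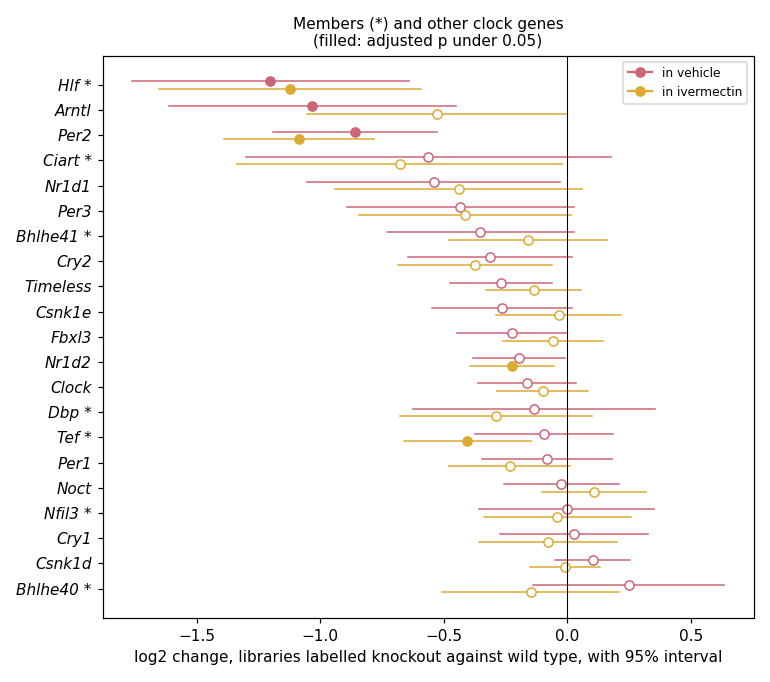
Log2 difference, knockout label minus wild type (horizontal axis, 95% interval) for the 7 tested members (starred) and 14 other clock genes, in vehicle and in ivermectin. Filled points passed an edgeR adjusted p of 0.05, and Hlf and Per2 are filled in both treatments.

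Among 10141 other genes (mean log2 CPM no lower than 3), Per2 had the profile nearest to that of Hlf over the 16 libraries, with a root mean square difference of 0.22 on the centred log2 CPM scale. Enc1 (0.23) and Mapt (0.23) came next. Group means of Per2 were 34.4, 37.7, 18.9 and 17.9 CPM in wild-type vehicle, wild-type ivermectin, vehicle labelled knockout and ivermectin labelled knockout, and those of Hlf were 13.97, 12.9, 6.02 and 5.93 CPM. The profiles nearest to Tef were those of 1810074P20Rik (0.10), Mlst8 (0.13) and Gnpat (0.13). This likeness is a description over 16 libraries that share their groups and depth.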

How the data were processed

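RNA-seq counts of 16 mouse libraries were used, 4 in each of 4 groups. Per the submitters' processing notes, the authors used bcl2fastq, STAR 2.7.2b, RSEM 1.3.3, DESeq2 1.32.0 and the build mm10. The deposited whole-number count table lists 23329 genes, and each of its 373264 values equals the expected count in the authors' deposited per-library RSEM tables rounded down (tolerance 1e-09). The TPM values and transcript lengths are those of the same deposited tables, as RSEM gave them. Ciart is listed as Gm129, matched through RefSeq.

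Counts were tested with edgeR 4.0.16 (R 4.3.3): TMM factors, filterByExpr (10820 genes kept), 1 mean per group over all 16 libraries, the quasi-likelihood F test, and Benjamini-Hochberg adjustment over all tested genes with a threshold of 0.05. SEs and 95% intervals come from that test. CPM values use TMM-scaled totals. The code was tested on simulated data. Replicate pairs within groups differed beyond counting noise (chi-squared per degree of freedom 1.16 to 7.36). The values of 5.46 to 7.36 were those of pairs with wild-type ivermectin replicate 4, and every other pair was at most 2.27. All libraries were kept. A count of 0 allows up to 1.49 to 3.36 CPM (3 counts, counting error only). Alternatives were DESeq2 1.42.0, other factors, filters and fits, expected counts rounded to whole numbers and a length offset. Others were thinning, a hepatocyte covariate, a replicate block and each library left out. Thinning was a single random draw, so thinned values hold its sampling error as well as the lower depth.

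Genes named are the 8 members, P2ry1, clock genes that passed in at least 1 comparison, hepatocyte and other markers, and, for each member that passed, the 3 nearest profiles. The members and lists were chosen with earlier results of these data known. Human islet tables of the series and the size-factor normalised table were not used here. One gene of the clock list is not reported here and is left out of its counts and medians.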

Additional observations from a re-analysis of the deposited data

Results flagged for a closer look

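Of 48 groups of 4 libraries examined for 1 library far from the other 3, over the 8 genes and 4 measures of the libraries, 6 had one, where chance gives about 1 in 20. Bhlhe40 was at 29.2 CPM in wild-type vehicle replicate 1 and at 15.6 to 16.7 CPM in the other 3. The difference of Bhlhe40 between the labels in vehicle was 0.50 without that library (edgeR adjusted p = 0.108) and 0.25 with it. Dbp was at 20.3 CPM in wild-type vehicle replicate 3 and at 10.1 to 11.1 CPM in the other 3. Nfil3 was at 41.4 CPM in ivermectin replicate 4 labelled knockout and at 28.1 to 30.0 CPM in the other 3, and its ivermectin change under that label was 0.12 without that library and 0.25 with it.

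The ribosomal precursor transcript Rn45s took 0.367% of the counts in that same library and 0.146 to 0.181% in the other 3. It took 2.99% in wild-type ivermectin replicate 4 and 0.143 to 0.167% in the other 3. Wild-type ivermectin replicate 2 had 14134 genes with a count, and the other 3 had 14251 to 14273.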

How the results depend on the processing

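The fall of Hlf under ivermectin passed in all 25 alternatives that tested it, and that in vehicle in 24 of 25, the hepatocyte covariate being the exception. With each library left out, Hlf ran from -1.34 to -1.05 in vehicle and from -1.27 to -0.99 in ivermectin. Members that passed numbered 0 in vehicle with a mean of at least 50 counts, where Hlf was not tested, and 0 with the covariate. In ivermectin 1 passed with DESeq2, with a mean of at least 50 counts and after thinning, and 1 to 3 with a library left out. Few counts limit Hlf, Ciart and Rora most.

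Over all genes, ivermectin in wild type gave 65 calls, 140 without a filter, 7 with a mean of at least 50 counts, 1 with the covariate and 55 to 100 with a library left out (100 without wild-type ivermectin replicate 1). In libraries labelled knockout no filter gave 23 calls in place of 0. The labels differed in 271 genes in vehicle with the covariate and in 1911 in ivermectin after thinning. The interaction gave 24 calls, 82 without a filter, 4 with a mean of at least 50 counts, 47 with the replicate block, 0 with the covariate and 8 to 48 with a library left out (48 and 14 without wild-type ivermectin replicates 1 and 3, and 8 without ivermectin replicate 1 labelled knockout).

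Estimates near 0 changed sign without passing, and the cause was not tested. For ivermectin in wild type, Bhlhe40 was -0.0287 after thinning and -0.0154 with the covariate. For ivermectin under the knockout label, Ciart was -0.0110 with DESeq2, -0.00101 with RLE factors, -0.00642 without a filter, -0.0199 with the replicate block and -0.0611 with the covariate. For the labels in vehicle, Nfil3 was 0.00129 with DESeq2, 0.0276 without a filter, 0.00241 with the replicate block and 0.21 after thinning, and Dbp was 0.00506 with the covariate. In ivermectin, after thinning, Nfil3 was 0.0346 and Bhlhe41 0.23. In the interaction, Dbp was 0.19 and Hlf -0.29 after thinning, and Nfil3 was 0.17 with the covariate.

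Other estimates that did not pass kept their sign and moved by over 1.5 times. The thinned values rest on a single random draw of few counts. After thinning, ivermectin in wild type gave 0.0280 for Tef and 0.0678 for Bhlhe41. Under the knockout label Dbp was 0.84, Bhlhe41 0.70, Bhlhe40 -0.55, Hlf -0.43 and Nfil3 0.0333. For the labels in vehicle, Dbp was -0.50, Bhlhe40 0.41 and Tef -0.0531. In the interaction, Bhlhe41 was 0.63 and Nfil3 -0.18. Ciart was not tested after thinning. With the covariate, ivermectin in wild type gave 0.46 for Ciart, 0.12 for Nfil3, -0.26 for Hlf and 0.0462 for Tef, and under the knockout label -0.0249 for Hlf. For the labels in vehicle, Ciart was -0.10, Bhlhe40 0.14, Nfil3 -0.23 and Tef -0.18, and in ivermectin Nfil3 was -0.0688. In the interaction, Ciart was -0.52, Dbp -0.28 and Hlf 0.23.

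With a library left out, ivermectin changes in wild type ran from -0.0219 to 0.31 for Bhlhe40, -0.0436 to 0.34 for Ciart, -0.27 to 0.0180 for Hlf and -0.0373 to 0.24 for Tef, and under the knockout label from -0.25 to 0.20 for Ciart and -0.20 to 0.0863 for Hlf. Label differences in vehicle ran from -0.22 to 0.15 for Dbp, -0.0786 to 0.11 for Nfil3 and -0.24 to 0.0432 for Tef, and in ivermectin from -0.18 to 0.0422 for Nfil3. Interactions ran from -0.37 to 0.0822 for Ciart, -0.0722 to 0.22 for Hlf and -0.18 to 0.0419 for Nfil3. The Tef length difference ran from -10.0 to 21.0 nt for ivermectin in wild type and from -13.7 to 17.3 nt for the labels in vehicle.

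Libraries with the same replicate number had a median r of 0.02 over 24 pairs, and those with other numbers -0.0048 over 72 pairs. An r over 0.1 was found for 2 of the 24 and 1 of the 72. Of 16 libraries, 6 correlated best with their own number. These values do not settle whether equal numbers mark pairs. The labels do not say so, and the numbers were not taken as pairs. The replicate block changed no call of a member.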
